A study of Mus musculus with 6 samples.

Results

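Genes that mark astrocytes were followed in whole brain of mice with a homozygous or a heterozygous conditional deletion of Mphosph8, a subunit of the HUSH complex that keeps parts of the genome silent. The set held 32 genes, 26 of them typical of resting astrocytes and 6 known to increase in reactive astrocytes (Gfap, Vim, Serpina3n, Lcn2, C4b and Cd44). They were matched by GENCODE M21 symbol, and all 32 were found among the 54532 gene identifiers counted. Of these 32 genes, 31 passed the filter on low counts and were tested among 16731 genes in all. Lcn2 did not pass it and is described by its counts.

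Libraries came from whole brains of C57BL/6J mice at postnatal day 14, with 3 brains in each group. Per the labels, control mice were Mphosph8fl/+ Nestin-Cre+, so they also carried the Cre transgene and 1 floxed allele, and their titles mark them as heterozygous. Mutant mice (Mphosph8∆n) were Mphosph8fl/fl Nestin-Cre+. Nestin-Cre acts in progenitors of the nervous system, so the floxed exon is removed, from both alleles in the mutant and from 1 allele in the control, in the cells that give rise to neurons, astrocytes and oligodendrocytes, while microglia and vessel cells arise from other lineages. For this experiment the study's text names littermate brains and gives the controls only as carrying the transgene, and the genotype in the labels was used. In immunoblots of sorted wild-type brain nuclei, the study found MPP8, the protein of Mphosph8, almost only in neuronal nuclei. Which cells lost the protein was not measured in these libraries. The resting and reactive classes rest on general knowledge of these genes and on no measurement made here.

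Astrocytes take up glutamate and potassium released by neurons, convert glutamate to glutamine, supply metabolites and lipoproteins, line blood vessels with end-feet rich in water channels, and secrete proteins that act on synapses. After injury, infection or degeneration they become reactive: they enlarge, build up intermediate filaments and switch on complement, protease inhibitor and acute-phase genes. At this age astrocytes are still maturing, and Gfap is made mainly in white matter and other fibrous astrocytes also in healthy brain.

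The libraries held 12956880 to 15223424 counts, with 25461 to 25743 genes detected. Mphosph8, the targeted gene, measured 55.8, 48.6 and 70.7 CPM (reads scaled to a common library size) in the control brains and 33.1, 27.2 and 26.5 CPM in the mutant brains. Transcript of the gene was thus still counted in the mutant. All mutant brains lay below all control brains, with a log2 fold change of -1.02 ± 0.12 (SE; edgeR adjusted p = 0.000157, n = 3 per group). In control replicate 3 the Y-linked genes Ddx3y, Eif2s3y, Kdm5d and Uty had 1338, 1398, 602 and 303 counts, and Xist had 27. The other 5 libraries had at most 1 count of any of these Y-linked genes and 11130 to 17697 of Xist. This library thus showed Y-linked expression that the others lacked, and several of the values it moved are also given without it.

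No astrocyte gene was called different between mutant and control brain. A call needed both an adjusted p under 0.05, from edgeR's quasi-likelihood test with Benjamini-Hochberg adjustment over all tested genes, and a fold change over 2. Over all genes tested, 60 (0.359%) were called, and 105 (0.628%) had an adjusted p under 0.05 at any fold. None of the 31 tested astrocyte genes did, the smallest adjusted p being 0.465 for Aldh1l1. In whole tissue, fewer cells of a type and less RNA per cell cannot be told apart.

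For the 31 tested genes, the main fit limited the size of a change in the level averaged over whole brain. The 95% confidence interval lay inside a 2-fold change for all 31 genes, and inside a 1.5-fold change for 30 of them, with Cd44 as the exception. The widest bounds in either direction were 0.643-fold for Cd44 and 1.39-fold for C4b. Standard errors of the log2 fold changes ran from 0.077 to 0.138, with a median of 0.095 against 0.114 over all genes tested. Of the astrocyte genes, 17 had a positive and 14 a negative log2 fold change, or 54.8% positive against 47.6% over all genes.

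**Figure D1:**
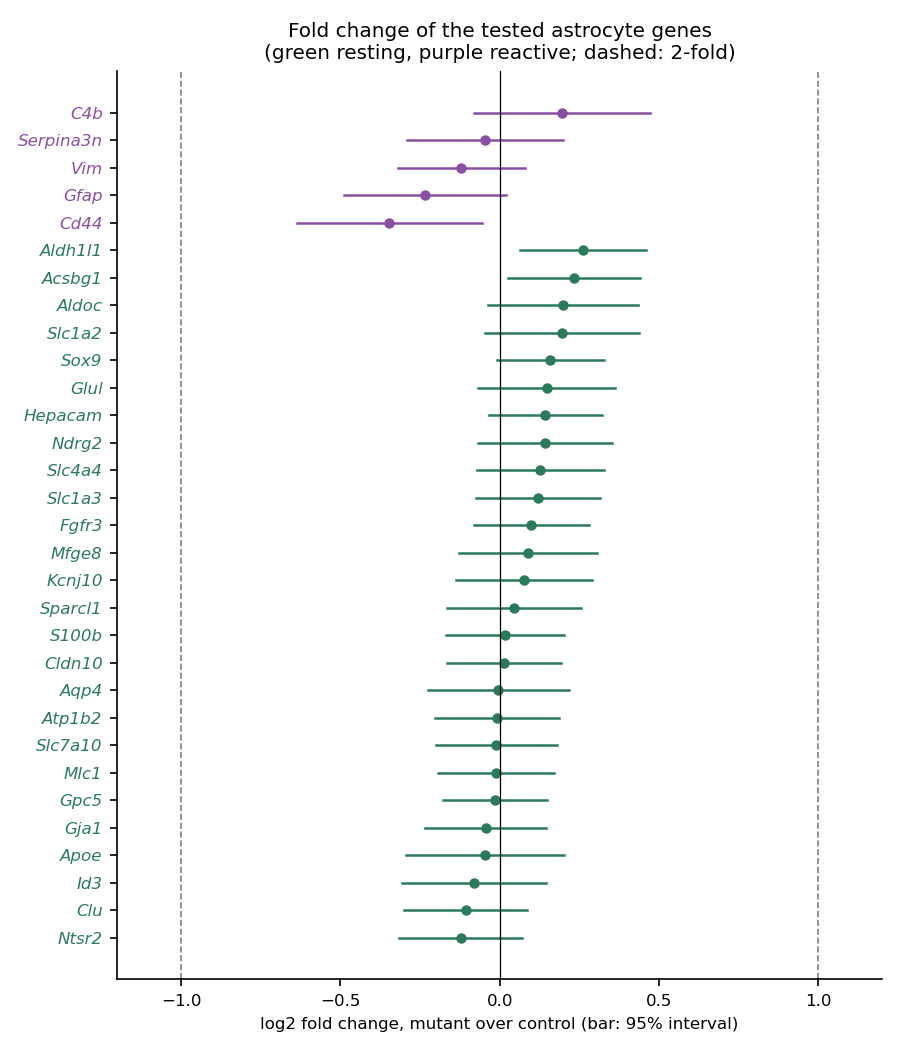
Log2 fold change of mutant over control for the 31 tested astrocyte genes (points) with 95% confidence intervals (bars), resting genes in green and reactive genes in purple, and dashed lines at a 2-fold change. All intervals lie between the dashed lines, and only those of Aldh1l1, Acsbg1 and Cd44 do not include 0.

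Before adjustment, 2 genes had a p under 0.05 with a higher level in the mutant (Aldh1l1 and Acsbg1) and 1 with a lower level (Cd44). These are 6.45% and 3.23% of the 31 genes, against 4.09% and 2.41% over all genes tested. In 5 genes all mutant brains lay above all control brains (Aldh1l1, Slc1a3, Sox9, Glul and Ndrg2), and in Cd44 all lay below. This is 16.1% and 3.23% of the astrocyte genes, against 6.23% and 5.42% of all genes. The genes were measured in the same 6 brains and are not independent, so no test was made of these shares.

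Levels spanned a wide range, given as CPM per kilobase of exon so that genes can be compared. In control brain Apoe, the main apolipoprotein of the brain, had the highest level of the set at 1676 ± 172 CPM per kilobase (SD, n = 3). Sparcl1 followed with 1222 ± 33.7, and then Glul with 632 ± 32.8. Gfap ranked 10 among the 32 genes at 164 ± 19.3 CPM per kilobase, above 99.2% of the genes tested. The other reactive genes were much lower: Vim had 22.6 ± 1.95, Serpina3n 7.67 ± 0.843, C4b 2.71 ± 0.461, Cd44 1.72 ± 0.171 and Lcn2 0.181 ± 0.0997 CPM per kilobase. Neighbours in this order often did not differ beyond their spread, such as Clu (199 ± 15.8) and S100b (197 ± 15.4). At these levels the defining astrocyte genes were plainly present in whole brain, with Slc1a2, Aqp4, Slc1a3 and Gja1 between 68.8 and 341 CPM per kilobase.

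**Figure D2:**
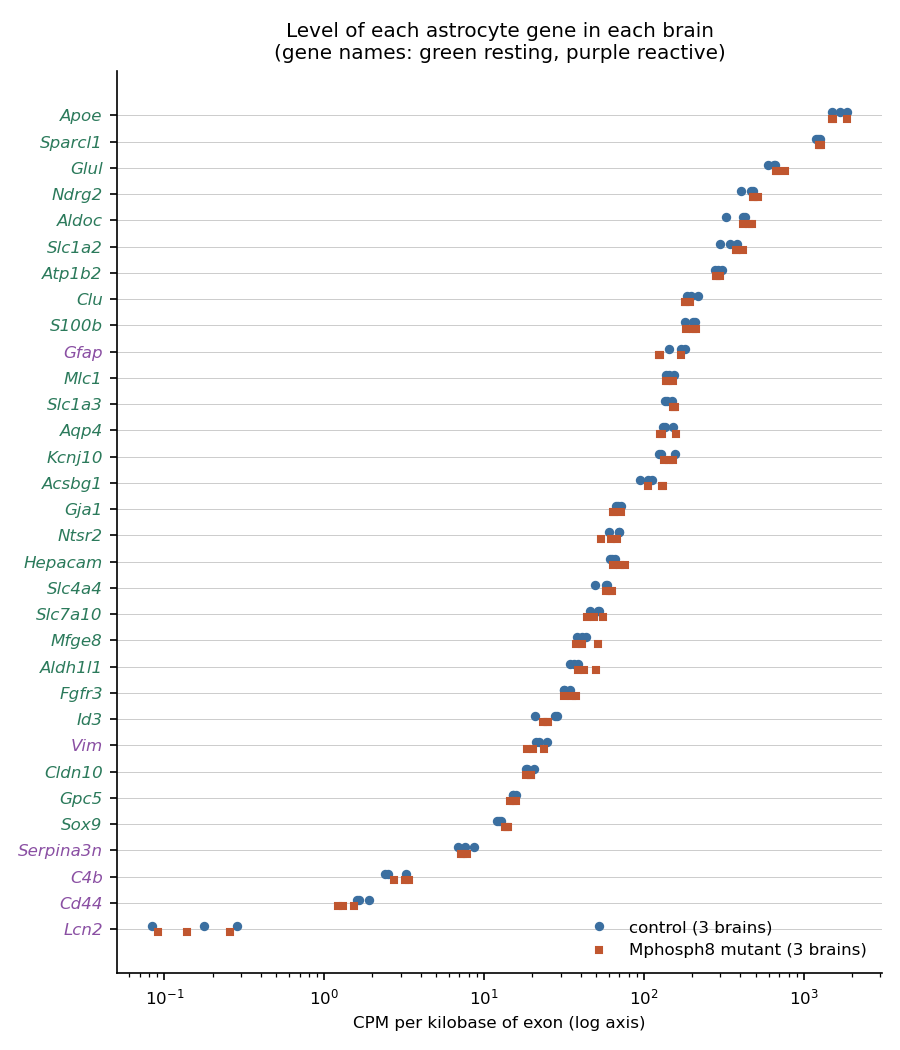
Level of each of the 32 astrocyte genes in each brain, as CPM per kilobase of exon on a log axis, with control brains as circles and mutant brains as squares and resting genes named in green, reactive genes in purple. Gfap lies among the resting genes, while Serpina3n, C4b, Cd44 and Lcn2 are the lowest 4 genes, and the groups lie close together throughout.

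Among genes of metabolism, all 4 had a positive log2 fold change, with a median of 0.22. Aldh1l1, a folate enzyme and a widely used marker of all astrocytes (GRCm38, plus strand, chr6:90486427-90600203), measured 164, 174 and 155 CPM in control and 226, 175 and 191 CPM in mutant brain. All mutant brains were above all controls, but mutant replicate 2 was within 1 CPM of control replicate 2. The log2 fold change was 0.26 ± 0.09 (SE; 95% interval 0.06 to 0.46, edgeR adjusted p = 0.465). Acsbg1, an acyl-CoA synthetase that activates long-chain fatty acids, measured 378, 402 and 342 CPM in control and 469, 382 and 469 CPM in mutant brain. Here mutant replicate 2 lay within the control range, and the log2 fold change was 0.23 ± 0.10 (SE; 95% interval 0.03 to 0.44, edgeR adjusted p = 0.659). Aldoc, the brain form of the glycolytic enzyme aldolase, had 1386, 1363 and 1057 CPM in control and 1542, 1349 and 1477 CPM in mutant brain. Its lowest value was that of control replicate 3, and the log2 fold change was 0.20 ± 0.11 (SE), or 0.09 without that library. Ndrg2, a cytoplasmic protein abundant in astrocytes, had 1617, 1571 and 1361 CPM in control and 1626, 1655 and 1740 CPM in mutant brain. The groups did not overlap, by a narrow margin between control replicate 1 and mutant replicate 1. Its log2 fold change was 0.14 ± 0.10 (SE), or 0.07 without control replicate 3.

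The size of the differences in these metabolic genes moved with single brains, while their sign did not change in any setting. Leaving out a library also lowers the power of the test. Without control replicate 3, no resting gene had an unadjusted p under 0.05 with a higher level in the mutant, and the same held without mutant replicate 1. The log2 fold change of Aldh1l1 was then 0.22 and 0.15, and that of Acsbg1 0.17 and 0.18. Over all 13 alternative settings both stayed positive, with adjusted p between 0.229 and 0.849 for Aldh1l1 and between 0.290 and 0.999 for Acsbg1.

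In the glutamate cycle the median log2 fold change was 0.13, and 3 of 4 genes were positive. Slc1a2 (GLT-1), which clears most synaptic glutamate, measured 3923, 4983 and 4517 CPM in control and 4996, 4938 and 5443 CPM in mutant brain. Control replicate 1 was low and the groups overlapped, giving 0.20 ± 0.11 (SE; edgeR adjusted p = 0.875), or 0.11 without that library. Slc1a3 (GLAST), the glutamate transporter of immature and radial glia, measured 1149, 1187 and 1267 CPM in control and 1323, 1287 and 1309 CPM in mutant brain. The groups did not overlap, yet the fold change was only 1.09 with an interval from 0.95 to 1.24. Glul, glutamine synthetase, had 2186, 2139 and 1978 CPM in control and 2529, 2203 and 2246 CPM in mutant brain, again without overlap (log2 fold change 0.15 ± 0.10, SE, or 0.08 without mutant replicate 1). Of its 50-base words, 10.6% also occur in transcripts of other genes, mostly the pseudogene Glns-ps1 (9.46%). Slc7a10, an exchanger of small neutral amino acids such as serine, had 105 ± 7.15 CPM in control and 104 ± 12.1 CPM in mutant brain.

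Genes of water and ion balance lay near 0, with a median log2 fold change of 0.04 and 3 of 6 positive. Aqp4, the water channel of astrocyte end-feet, measured 837, 939 and 816 CPM in control and 992, 808 and 785 CPM in mutant brain. The groups overlapped fully, and the fold change was 0.997 with an interval from 0.855 to 1.16. Kcnj10, the potassium channel Kir4.1, had 732 ± 91.5 CPM in control and 771 ± 47.0 CPM in mutant brain (SD, n = 3), a log2 fold change of 0.08, or 0.02 without control replicate 3. Hepacam and its partner Mlc1, which together form a membrane complex at end-feet, had log2 fold changes of 0.14 ± 0.08 and -0.01 ± 0.09 (SE). The sodium bicarbonate transporter Slc4a4 stood at 0.13 ± 0.09, and Atp1b2, a subunit of the sodium pump, at -0.01 ± 0.09. None of the 6 had an unadjusted p under 0.05.

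Secreted proteins were likewise near 0, with a median of 0.02 and 3 of 5 positive. Apoe measured 3949, 3589 and 3214 CPM in control and 3978, 3244 and 3197 CPM in mutant brain, so that replicate 1 was the highest in both groups. Its log2 fold change was -0.05 ± 0.12 (SE; edgeR adjusted p = 0.985). Clu, another apolipoprotein, had -0.11 ± 0.09, and Sparcl1 (hevin), which acts on excitatory synapses, 0.05 ± 0.10. Sparcl1 was tightly measured, at 3588 ± 98.9 CPM in control and between 3652 and 3749 CPM in mutant brain. Mfge8, a bridging protein for phagocytosis, had 0.09 ± 0.10, and the calcium-binding protein S100b 0.02 ± 0.09.

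Among transcriptional regulators, Sox9, which is needed to start gliogenesis, measured 50.8, 52.9 and 50.01 CPM in control and 58.3, 56.1 and 57.2 CPM in mutant brain. The groups did not overlap and the spread within each was small, for a log2 fold change of 0.16 ± 0.08 (SE; 95% interval -0.01 to 0.33, edgeR adjusted p = 0.801). Id3, an inhibitor of basic helix-loop-helix factors, measured 51.1, 49.9 and 37.3 CPM in control and 41.7, 44.0 and 45.1 CPM in mutant brain. Control replicate 3 was the lowest of all, and the log2 fold change was -0.08 ± 0.11, or -0.21 without that library. The connexin Gja1, which couples astrocytes through gap junctions, stood at -0.04 ± 0.09, and the claudin Cldn10 at 0.01 ± 0.08. Of the receptors and surface proteins, the neurotensin receptor Ntsr2 had -0.12 ± 0.09, the growth factor receptor Fgfr3 0.10 ± 0.09 and the glypican Gpc5 -0.02 ± 0.08.

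Of the 6 reactive genes, 5 could be tested, 4 of them with a negative and 1 with a positive log2 fold change, and their median was -0.12. Gfap, the intermediate filament protein of astrocytes (minus strand, chr11:102887336-102900912), measured 717, 756 and 599 CPM in control and 713, 529 and 519 CPM in mutant brain. Mutant replicates 2 and 3 were below all control brains, while mutant replicate 1 was close to control replicate 1. The log2 fold change was -0.24 ± 0.12 (SE; 95% interval -0.49 to 0.02, edgeR adjusted p = 0.804). This value depended on single brains. It became -0.40 without mutant replicate 1 (edgeR adjusted p = 0.0627) and -0.33 without control replicate 3. Without control replicates 1 and 2 in turn it was -0.21 and -0.17, and without mutant replicates 2 and 3 in turn -0.17 and -0.15. With mutant replicate 1 and control replicate 3 both left out, the log2 fold change was -0.49 (edgeR adjusted p = 0.00212). That pair of libraries was chosen after the astrocyte genes' own values had been seen. The 13 alternatives together gave -0.49 to -0.15, with adjusted p from 0.00212 to 1.00, and only the setting without both libraries passed the threshold.

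Cd44, a receptor for the matrix sugar hyaluronan (minus strand, chr2:102811141-102901665), measured 11.2, 12.96 and 10.8 CPM in control and 10.4, 8.21 and 8.87 CPM in mutant brain. All mutant brains were below all controls, the nearest being mutant replicate 1 and control replicate 3. The log2 fold change was -0.35 ± 0.14 (SE), the farthest from 0 among the astrocyte genes, on 505 counts in control and 362 in mutant libraries (edgeR adjusted p = 0.597). Vim, another intermediate filament protein that is also made by vessel and ependymal cells, had 105, 99.5 and 117 CPM in control and 112, 96.0 and 87.7 CPM in mutant brain. The groups overlapped, at -0.12 ± 0.09 (SE), which ran from -0.22 without mutant replicate 1 to -0.04 without mutant replicate 3 and was -0.05 without control replicate 3.

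Of the 3 remaining reactive genes, neither Serpina3n nor C4b had an unadjusted p under 0.05 in the edgeR test. Lcn2 had too few counts to be tested. Serpina3n, a protease inhibitor, measured 14.2, 15.6 and 17.7 CPM in control and 16.2, 14.7 and 15.2 CPM in mutant brain, a log2 fold change of -0.05 ± 0.12 (SE). C4b, a complement component, measured 13.6, 18.5 and 14.2 CPM in control and 19.4, 18.2 and 15.5 CPM in mutant brain. It was the only tested reactive gene with a positive value, 0.20 ± 0.13 (SE; edgeR adjusted p = 0.902), and 34.6% of its 50-base words also occur in its close copy C4a, so reads of the pair could be split or lost. Lcn2, an iron-siderophore carrier induced in acute reactivity, had 7, 3 and 11 counts in control and 3, 9 and 5 counts in mutant libraries. The ratio of mutant to control, scaled for library size, was 0.888, with an exact 95% interval from 0.440 to 1.77 that covers counting error only.

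Resting and reactive genes were then compared as classes. The median log2 fold change was 0.06 over the 26 resting genes, which ranged from -0.12 to 0.26 with 16 positive, and -0.12 over the 5 tested reactive genes, which ranged from -0.35 to 0.20. Over all genes tested the median was -0.007. Both medians depended on single brains: with 1 library left out in turn, the resting median ran from 0.02 (without control replicate 3) to 0.09 (without mutant replicate 2), and the reactive median from -0.22 (without mutant replicate 1) to -0.04 (without mutant replicate 3), being -0.05 without control replicate 3. With 5 tested genes, the reactive median was the value of 1 gene, Vim, in the main fit and in the settings just named. In the main fit it was lower than the resting median by a difference of -0.18. This difference shrank to -0.08 when Gfap and Vim, which healthy astrocytes also express, were counted with the resting genes, and to -0.07 without control replicate 3. When the CPM of each class were summed, so that Gfap carried most of the reactive class, it was -0.29. No test was made over the classes, since their members were chosen with results of these data known.

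In the separate brains, the classes overlapped between the groups. The mean log2 CPM of the resting genes was 8.82, 8.85 and 8.72 in control and 8.91, 8.80 and 8.86 in mutant brain. That of the tested reactive genes was 5.47, 5.62 and 5.51 in control and 5.60, 5.36 and 5.31 in mutant brain. The lowest values of the reactive class were those of mutant replicates 2 and 3, while mutant replicate 1 was among the highest. Taken as the reactive minus the resting mean, control brains had -3.26 ± 0.08 and mutant brains -3.43 ± 0.12 (SD, n = 3), and mutant replicate 1 (-3.31) lay above control replicate 1 (-3.35). All astrocyte genes together took 2.49% to 2.73% of the counts of a library.

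**Figure D3:**
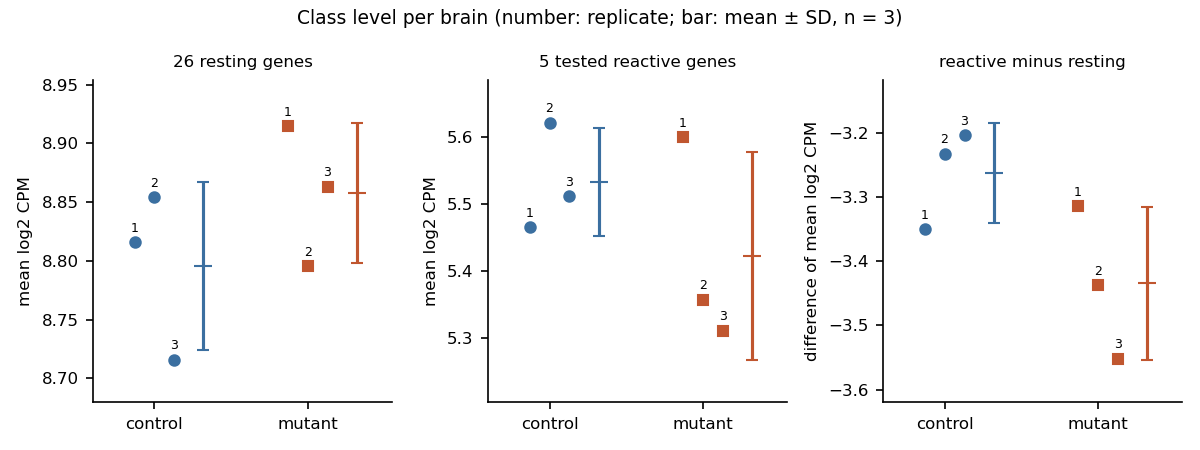
Mean log2 CPM of the 26 resting genes, of the 5 tested reactive genes, and the difference between them, with 1 numbered point for each brain and a bar for the mean ± SD of 3 brains; the vertical axes differ and do not start at 0. In all 3 panels the control and mutant points overlap, and mutant replicates 2 and 3 have the lowest reactive level.

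The libraries of each group differed in how they stood against the mean. Mutant replicate 1 had the highest value of the 6 libraries in 15 of the 31 tested genes, and in 14 of the 26 resting genes. Control replicate 3, the library with Y-linked counts, had the lowest value in 12 of 26 resting genes and was above the mean of the 6 libraries in only 3 of them. Mutant replicate 3 was above the mean in 19 of 26 resting genes and mutant replicate 2 in 7 of 26. Control replicate 3 was not low for the reactive genes, of which 3 of 5 were above their mean there. Mutant replicate 1 was above the mean in 5 of 5 reactive genes and mutant replicate 3 in 0 of 5. The deviation of all genes tested was near 0 in each library, with medians between -0.001 and 0.004. The part of the sex difference in these deviations was not tested.

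**Figure D4:**
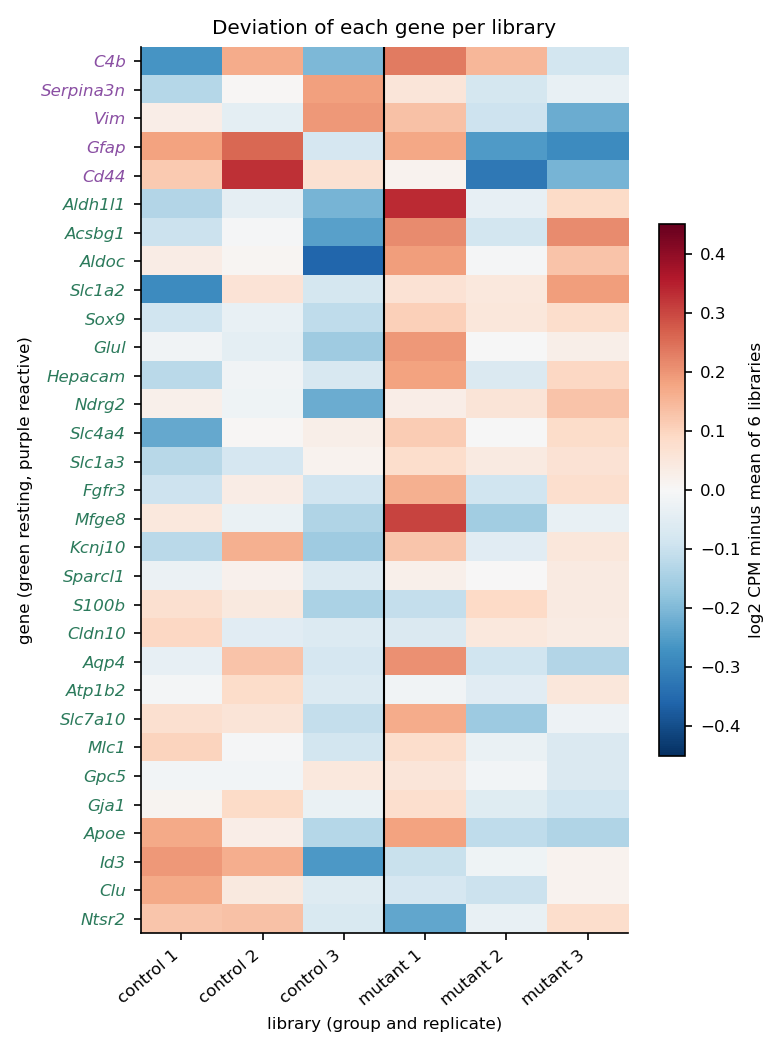
Heatmap of the deviation of each tested astrocyte gene (rows; resting in green, reactive in purple) from its mean over the 6 libraries (columns), in log2 CPM, with the black line between control and mutant. Mutant replicate 1 is mostly above the mean, control replicate 3 is mostly below it in the resting genes, and Gfap and Cd44 are lowest in mutant replicates 2 and 3.

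Other genes of astrocytes had no call either. Of 24 further astrocyte genes, all tested, 19 (79.2%) had a positive log2 fold change. This share was 54.8% in the 31 astrocyte genes above and 47.6% over all genes tested. In 3 of the 24 all mutant brains lay above all control brains and in 1 all lay below (6.23% and 5.42% of all genes). At an unadjusted p under 0.05, 1 was higher and 0 were lower (4.09% and 2.41% of all genes). The median of the 24 was 0.07, and none of them had an adjusted p under 0.05. The smallest p among them was that of Paqr6, a membrane progestin receptor, which measured 9.10 ± 0.140 CPM in control and 11.3 ± 1.49 CPM in mutant brain (log2 fold change 0.31 ± 0.13, SE; edgeR adjusted p = 0.684). Of 19 regulators of astrocyte formation, such as the nuclear factor I genes, Stat3 and the Notch and BMP pathways, none had an unadjusted p under 0.05 and the median was 0.002. The smallest p was that of Hes1, a Notch target, at -0.28 ± 0.13 (SE; edgeR adjusted p = 0.766). Of 9 genes for proteins by which astrocytes form or remove synapses, the median was -0.07. Against 2.41% of all genes, 1 of the 9 had an unadjusted p under 0.05 with a lower level in the mutant. It was Thbs4, a thrombospondin, with 7.25 ± 0.256 CPM in control and 5.62 ± 0.235 CPM in mutant brain (-0.37 ± 0.15, SE; edgeR adjusted p = 0.629).

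Published panels of reactive astrocytes were read in the same way. From a panel common to many kinds of injury 8 genes were listed, without Gfap, Vim, Serpina3n and Cd44, which were followed above. Of these 8 genes, 7 could be tested. Their median was 0.17 and none had an unadjusted p under 0.05. Of these 7, 6 were positive and 1 negative. The 4 genes kept out of this list are the negative ones among the tested reactive genes above (1 positive and 4 negative). The counts of signs thus cover different genes, and they are not a contrast between panels. The 95% interval lay inside a 2-fold change for only 4 of the 7. Osmr, the oncostatin M receptor, had the smallest p of these 7 (0.18 ± 0.13, SE, edgeR adjusted p = 0.913). In the panel called A1, after inflammation, 11 of 12 could be tested, the median was 0.02, and 2 had an unadjusted p under 0.05 with a higher level in the mutant, against 4.09% of all genes. The smaller p was that of Iigp1, an interferon-induced GTPase, with 1.27 ± 0.339 CPM in control and 2.29 ± 0.543 CPM in mutant brain (0.85 ± 0.30, SE; edgeR adjusted p = 0.428), on 55 and 91 counts. In the panel called A2, after ischemia, 10 of 12 could be tested, the median was 0.007 and none had an unadjusted p under 0.05. The smallest p there was that of the membrane protein Emp1, at -0.34 ± 0.17 (SE; edgeR adjusted p = 0.797). None of these panels had a gene with an adjusted p under 0.05.

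Markers of oligodendrocytes, the other glial cells that arise from Nestin-Cre progenitors, had lower values in the mutant, but only 1 of 8 had an adjusted p under 0.05 and none was called. All 8 had a negative log2 fold change, with a median of -0.43, all 8 had an unadjusted p under 0.05 (2.41% of all genes in this direction), and in 6 the groups did not overlap (5.42%). Mog, a myelin surface protein, fell from 251 ± 24.5 CPM in control to 178 ± 27.2 CPM in mutant brain (-0.49 ± 0.10, SE; edgeR adjusted p = 0.0351), and was the only gene of any list with an adjusted p under 0.05. The summed level of the 8 markers was 20988 to 25231 CPM in control and 16758 to 19355 CPM in mutant brain. Its part in the values of the astrocyte genes, which are relative to all other RNA of the brain, was not tested.

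The medians of the other cell types lay closer to 0. The median log2 fold change (values for single genes ± SE) was -0.03 over 8 neuronal markers (smallest p Gad2, 0.21 ± 0.08). It was -0.08 over 4 genes of oligodendrocyte progenitors and their lineage (Sox10, -0.29 ± 0.09, edgeR adjusted p = 0.210). Sox10 is thus not read as a marker of progenitors alone. The median was 0.02 over 8 microglial markers (Csf1r, 0.15 ± 0.09). It was -0.12 over 4 endothelial markers (Cdh5, -0.14 ± 0.09) and -0.11 over 4 mural markers (Rgs5, -0.17 ± 0.09). Over 6 markers of ependyma and choroid plexus it was -0.07, with Ttr, the choroid plexus transthyretin, at -0.45 ± 0.11 (SE; edgeR adjusted p = 0.0764). Markers of red cells had a median of 0.17 (Alas2, 0.25 ± 0.15). Neutrophils also make Lcn2, and their 4 markers together had 1.53 to 1.69 CPM in control and 1.49 to 3.13 CPM in mutant brain, too low to be tested.

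The promoters of the astrocyte genes were searched for letters bound by regulators of astrocyte genes. RefSeq windows from 250 bases before to 50 bases after a start site (GRCm38.p6) were found for 26 of the 32 genes, with 29 windows for resting and 5 for reactive genes. The motif TTCNNNGAA, bound by STAT factors and searched on both strands, occurred in 4 of the 29 resting windows (of Acsbg1, Aldoc, Ntsr2 and Slc1a3) and in 1 of the 5 reactive windows (of Gfap), and in 8.30% of all 32851 windows. In Gfap it lay at an internal start, 3712 bases from the 5′ end of the gene in GENCODE. The NFI half-site TTGGCA occurred in 4 resting windows and 1 reactive window, that of Lcn2 (14.1% of all windows), the SOX motif ACAATG in Apoe (12.6%), and the E-box CACGTG in Ntsr2 (7.15%). A match describes letters only and says nothing of binding. Of the resting genes with a STAT motif, 3 are shown because their start sites lie within 88 bases of the 5′ end of the gene in GENCODE, each read 5′ to 3′ on the strand of the gene with the motif in capitals.
Acsbg1 (minus strand, chr9:54661886-54661941): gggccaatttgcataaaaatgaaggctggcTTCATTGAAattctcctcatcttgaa
Slc1a3 (minus strand, chr15:8710865-8710933): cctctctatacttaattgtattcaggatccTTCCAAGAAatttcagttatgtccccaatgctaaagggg
Ntsr2 (plus strand, chr12:16653378-16653446): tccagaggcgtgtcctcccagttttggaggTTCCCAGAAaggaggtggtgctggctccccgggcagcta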

How the data were processed

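Per the labels and the study's methods, polyA RNA of whole brain was sequenced as single reads of 50 bases, trimmed (Trim Galore 0.5.0), cleared of ribosomal and other unwanted reads (Bowtie2 2.3.4.1), aligned with STAR to GRCm38 and counted per gene with featureCounts (Subread 1.6.2). The authors deposited raw counts per Ensembl gene, not normalised. Neither strand setting nor multi-gene handling is given in the sources used here. This touches Fgfr3, Aldh1l1, Slc7a10, Slc1a2, Glul and Gpc5, which share 998, 499, 377, 189, 116 and 107 exon bases with genes on the opposite strand.

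Of the identifiers, 54495 matched GENCODE M21. Counts of all 6 libraries were filtered by filterByExpr, scaled by TMM and fitted in edgeR 4.0.16 under R 4.3.3. Genotype was the only term, the quasi-likelihood F test was used, and Benjamini-Hochberg adjustment ran over 16731 genes. Standard errors were derived from the F statistic, and CPM use the effective library size. Mean log2 CPM per library used a prior count of 2. The fit was tested on simulated data. Per-length levels divide CPM by merged exon length. Shared sequence was counted as 50-base words found in transcripts of other genes that do not overlap the gene. Other settings tried were DESeq2 1.42.0, limma-voom (limma 3.58.1), RLE size factors, other count filters, other class divisions, a replicate block and leaving out libraries. Chi-square per degree of freedom between libraries of 1 group was 3.67 to 13.6 over genes, above sampling noise, which speaks only to resequencing of 1 library and not to whether they came from separate brains. Depth limits the precision of low genes such as Lcn2 and Iigp1.

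All 32 astrocyte genes were named, and in each other list the genes with an adjusted p under 0.05 or else the gene with the smallest p. The astrocyte genes, the lists and the classes were chosen with earlier results of these data known. The study describes control and mutant brains as littermates but does not tie libraries to litters, so no litter term was fitted.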

Additional observations from a re-analysis of the deposited data

How the results depend on the processing

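No astrocyte gene was called, with a fold limit of 2 or 1.5, under any alternative, and none had an adjusted p under 0.05 except Gfap with control replicate 3 and mutant replicate 1 both left out (1 gene, -0.49, edgeR adjusted p = 0.00212). Those libraries were picked after the data were seen, from the astrocyte genes' own values, and only 2 brains per group remained. In that setting 0 genes were higher and 3 lower at an unadjusted p under 0.05, and the log2 fold changes of Kcnj10 (-0.0261), Mfge8 (-0.10) and Serpina3n (0.00469) changed sign. Leaving out 1 library gave 0 to 3 genes higher and 0 to 3 lower at an unadjusted p under 0.05. Without control replicate 3 these were 0 higher and 3 lower (Gfap, Cd44 and Id3), without mutant replicate 1 they were 0 higher and 3 lower (Gfap, Cd44 and Vim), and without control replicate 2, mutant replicate 2 or mutant replicate 3 there were 0 lower. DESeq2 gave 4 higher and 2 lower, and no filter on low counts gave 2 lower. For unadjusted p, the share over all genes is given here for the main fit only (4.09% higher and 2.41% lower). The counts under the alternatives therefore have no share of their own setting beside them, and their shifts are not a result about the astrocyte genes. The difference between the classes was -0.267 to -0.0714 with 1 library left out, -0.0759 with Gfap and Vim counted as resting and -0.29 from summed CPM. Over all genes, 105 had an adjusted p under 0.05, against 242 with no filter, 66 to 162 with 1 library left out and 205 with both left out. The cause of these shifts was not tested.

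The log2 fold change changed sign in 12 of 31 genes and in none of the other 19, and those 12 lay within 0.089 of 0. Leaving out 1 library gave -0.12 to 0.0590 for Aqp4, -0.0464 to 0.0697 for S100b, -0.15 to 0.0291 for Apoe, -0.0387 to 0.0304 for Atp1b2, -0.0557 to 0.0373 for Mlc1, -0.0138 to 0.0642 for Cldn10, -0.0486 to 0.0131 for Gpc5, -0.0572 to 0.18 for Mfge8, -0.21 to 0.000774 for Id3, -0.10 to 0.0636 for Slc7a10 and -0.12 to 0.0439 for Serpina3n.

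Deviations from the group means of same-numbered libraries correlated at 0.10, -0.05 and 0.08. Libraries with different numbers were not compared in this way, so these values do not decide whether brains were paired. A replicate block gave 2 genes lower at an unadjusted p under 0.05 (Gfap and Cd44) and changed no call.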
